A study of Sparus aurata with 53 samples.

Results

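The transcriptome of whole gilthead sea bream (*Sparus aurata*) larvae at the hour when the light came on was compared with that at the hour when it went off. Light onset was represented by 12 larvae, 6 labelled 0 h zeitgeber time (ZT, hours after the light came on) and 6 labelled 24 h, one day later. Light offset was represented by the 5 larvae labelled 12 h. Read as clock times beside the study's hour of light offset, their sample titles place them shortly before the light went off. These 17 larvae were chosen from the sampling times in the sample labels alone, out of 53 larvae sampled every 3 h at 9 times, and all 13940 non-control probes of the array were compared. All 53 larvae were 30 days post hatching and came from tanks kept at constant temperature with light and dark phases of 12 h each, where rotifers and then *Artemia* nauplii were always on offer as live prey. By their labels they differed only in the hour of sampling, and the labels give no strain and no treatment. The study, with gut fullness from earlier work, places the most feeding in the later part of the light phase and a fast overnight. Feeding state and hour of sampling therefore cannot be told apart in this comparison. RNA of each whole larva was labelled with Cy3 and hybridised to 1 array. Per the methods of the study, larvae of a sampling time shared tanks, and the labels give other numbers of tanks and of larvae per time than those methods. The tank of each larva is not given in the sources used here, so the tank was in no fit, and the p-values measure the spread between larvae, which were not all from separate tanks.

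In vertebrates the circadian clock is a feedback loop of transcription. The activators CLOCK and BMAL1 bind as a pair to the promoters of the period (PER) and cryptochrome (CRY) genes, whose proteins accumulate and repress that pair until they are degraded. In fish, many tissues sense light directly, and some *per* and *cry* genes respond to light as well as to the loop. The clock gates cell division, nutrient handling and protein quality control in many tissues, so such genes could differ between the beginning and the end of the light phase.

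A level is the log2 of the background-corrected signal of a probe minus the 75th percentile of its array, so that a level of 0 lies at that percentile. A difference is light onset minus light offset on this log2 scale, with its standard error (SE) from the limma fit of all 53 arrays. The share of probes well above background was 79.3% to 90.8% on the arrays of light onset, against 74.2% to 86.8% at light offset, and the 75th percentiles of raw intensity lay between 191 and 434 fluorescence units at light onset and between 180 and 476 at light offset. The arrays were on 7 slides, and the 5 larvae of 12 h lay on 5 different slides, each with at least 1 larva of light onset. As a check of the tissue, 12 of 12 marker clones of retina, skeletal muscle, intestine, liver, epithelium, inner ear and lens were well above background on all 53 arrays. Of these markers 8 were higher and 0 lower at light onset, with differences between 0.08 and 4.64. Over all probes 4.64% were higher and 3.45% lower. The markers are among the 277 named clones, of which 58.8% passed the test used below, and their part in the results was not tested. In RNA of whole larvae, fewer cells of a type and less RNA per cell cannot be told apart.

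At light onset 647 probes were higher and 481 were lower than at light offset, which is 4.64% and 3.45% of the probes tested and 8.09% together (limma, Benjamini-Hochberg adjusted p under 0.05). Among the probes that rose, the median difference was 0.83, or 1.78-fold, and 244 changed more than 2-fold. Among those that fell, the median size was 0.75, or 1.68-fold, and 138 changed more than 2-fold. The median difference over all probes was -0.03. In 233 (36%) of the probes that rose and 132 (27.4%) of those that fell, no larva of light onset overlapped with any larva of light offset. Over all probes this share was 2.70%. The called probes were selected on their difference between these same larvae, so the higher shares follow from the selection. With the slide as a block, 1041 probes were higher and 942 lower. The normexp background correction, which adds a constant of 50 to each signal, left 260 higher and 182 lower. Both dim and bright clones lost calls. In the dim clones C2_16398 and C2_44391 the differences were -0.48 and 0.45 with normexp, against -2.40 and 2.62 without it. In the bright clones C2_6748 and C2_31305, at mean levels of 3.93 and 4.26 at light onset, they were 0.69 and 0.54. Without normexp these were 0.64 and 0.54. What cost the calls was not tested.

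The 2 light onsets were also set against the same 5 larvae of light offset one at a time. At 0 h against 12 h, 484 probes were higher and 343 lower (5.93% of probes), and at 24 h against 12 h, 540 were higher and 388 lower (6.66%). In the probes higher at light onset, the median difference was 0.81 at 0 h and 0.83 at 24 h, and in those lower at light onset it was -0.73 at 0 h and -0.77 at 24 h. These values share the larvae of 12 h. The probes were also selected on the mean of both differences, so the 2 medians are no independent repeat. Between 24 h and 0 h directly, 0 probes passed limma's adjusted p of 0.05, and 449 of the 13940 had an unadjusted p under 0.05. That is a smaller share than the 0.05 that would pass this threshold if no probe differed.

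The other 6 sampling times, which entered the comparison only through the spread that the fit shares, show how the levels moved between these ends. Probes higher at light onset were highest at 3 h in 43.4% and at 21 h in 37.2% of cases when only those 6 times were ranked, against 14.8% and 22.9% of all probes. Probes lower at light onset were highest at 9 h in 37.4% and at 15 h in 40.3%, against 9.07% and 15.6% of all probes. The middle of the day was then set against the middle of the night, in larvae whose levels were not part of the difference. Of the 647 probes that rose, 105 (16.2%) were higher and 49 (7.57%) lower at 6 h than at 18 h, and 493 did not pass the test. Over all probes, 2.52% were higher and 4.53% lower at 6 h. Of the 481 that fell, 40 (8.32%) were higher and 41 (8.52%) lower at 6 h, and 400 did not pass.

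**Figure D1:**
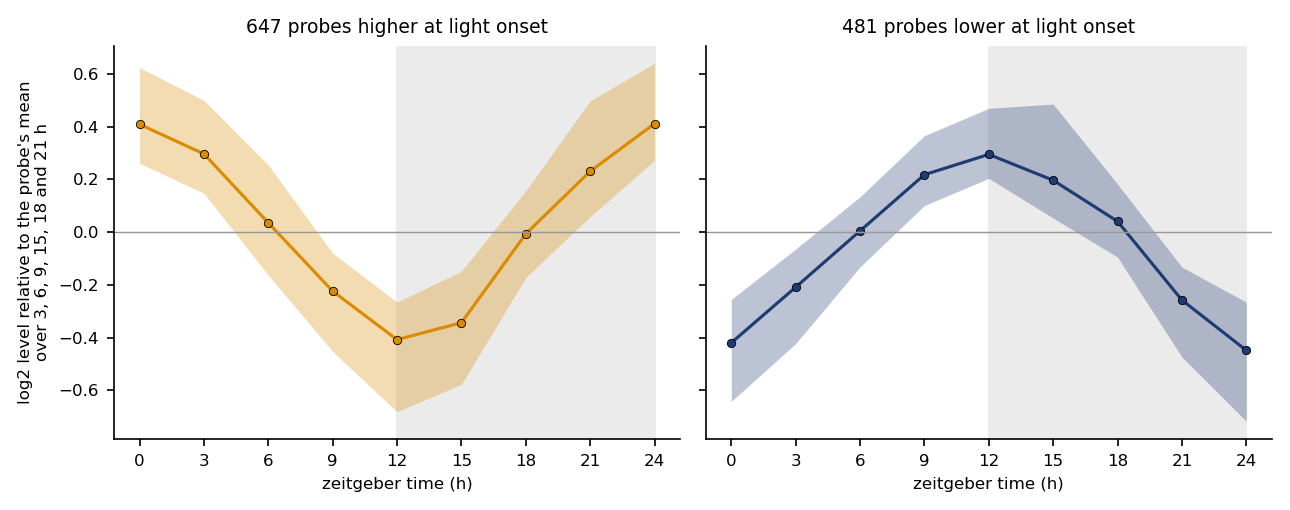
Course over zeitgeber time (h) of the 647 probes higher (left) and the 481 probes lower (right) at light onset, as log2 level relative to the mean of each probe over the 6 sampling times outside the comparison. Points are medians over probes and bands the quartiles, and the dark phase is shaded. The medians of the probes that rose were 0.41 at both light onsets and -0.41 at light offset, the times on which the probes were selected. They passed close to 0 in the middle of the day (0.04) and of the night (-0.01).

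Clone codes paired 277 of the probes with a gene name. The study selected most of these genes for their course over the day in these larvae, so 163 of them (58.8%) were called here, and the counts of the gene groups below are no independent evidence. The 8.09% of all probes called, and the median of -0.03 over all probes, stand beside each group.

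**Figure D2:**
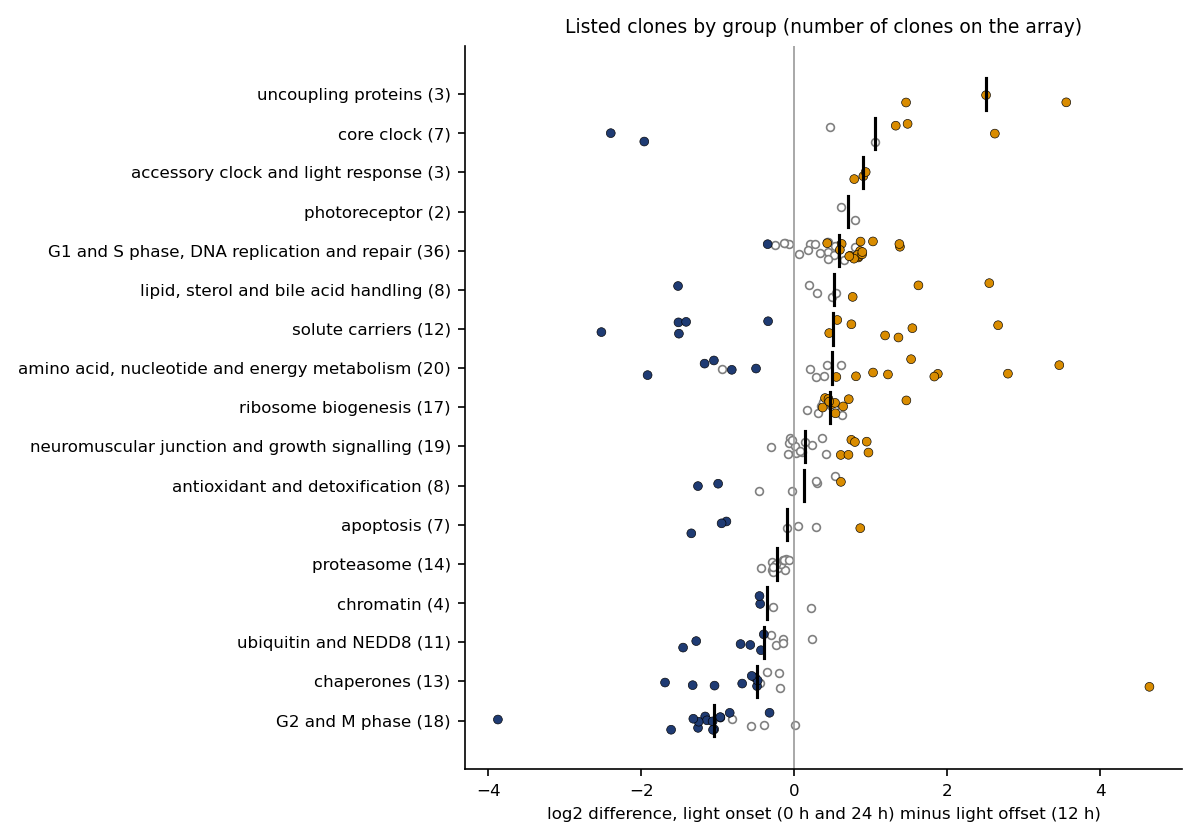
Log2 difference, light onset (0 h and 24 h) minus light offset (12 h), of the 202 named clones that fall into a gene group, with the number of clones of a group in brackets. Filled points passed an adjusted p of 0.05 (orange higher, blue lower), open points did not, and the black bar is the median of the group; the median of the 3 uncoupling proteins lies furthest to the right and that of the G2 and M phase genes furthest to the left.

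Of the 7 core clock genes, 3 were higher and 2 lower at light onset. The repressors *cry1*, *cry2* and *per3* rose, and the activators *bmal1* and *clock* fell. Cryptochrome-1 (C2_13248) had levels of 0.70 to 1.55 with a median of 1.02 in the 12 larvae of light onset, and of -0.25, -0.24, -0.43, -0.57 and -0.59 in the 5 larvae of light offset. No larva of either side overlapped with the other, and the difference was 1.48 ± 0.18 (SE, adjusted p = 1.25e-08), or 2.80-fold. Cryptochrome-2 (C2_63385), the second repressor of this family, ranged from -2.16 to -1.40 with a median of -1.68 at light onset, against -2.88, -3.38, -2.58, -2.80 and -3.43 at light offset. The groups were again separate, with a difference of 1.33 ± 0.17 (adjusted p = 1.39e-07) that was 1.33 from 0 h and 1.33 from 24 h alike. Period 3 (C2_44391) lay between -3.76 and -2.65 at light onset, median -3.26, and was well above background on 12 of 12 arrays. At light offset it was not well above background on any of 5 arrays (-6.92, -5.26, -6.62, -5.16 and -5.26). With levels of light offset raised to at least the lowest signal well above background on each array, it was 4.54-fold higher at light onset. On the measured levels its adjusted p was 1.14e-10. Both cryptochromes also stood above their 18 h level at 6 h, by 1.79 and 1.21 (adjusted p = 2.64e-09 and 1.44e-05), whereas *per3* differed by -0.56 there (adjusted p = 0.23).

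The other 2 period genes did not pass the test. Period 1 (C2_21343) ranged from -3.17 to -1.95 with a median of -2.76 at light onset, against -3.35, -3.01, -3.83, -2.95 and -2.58 at light offset, a difference of 0.48 ± 0.24 (adjusted p = 0.293). Its levels overlapped, and the 6 h larvae stood 1.27 above the 18 h larvae (adjusted p = 0.000771). Period 2 (C2_58904), which light induces in many fish tissues, was well above background on 1 of 12 arrays of light onset and on 0 of 5 of light offset, with a measured difference of 1.06 ± 0.37 (adjusted p = 0.0667). With the levels of light offset raised as for *per3*, it was only 1.11-fold higher at light onset. Its adjusted p was 0.0476 with median centring, 0.0159 with quantile normalization, 0.0447 without larva 6 of 0 h, 0.0410 and 0.0465 without larva 2 or 3 of 24 h, and 0.0277 without larva 2 of 12 h. In the other refits that covered it, it did not pass 0.05.

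The activators stood the other way round. BMAL1 (C2_16398) was at -7.12 to -4.53 with a median of -6.23 at light onset, where 3 of 12 arrays were well above background, and at -3.99, -4.20, -3.83, -3.52 and -2.20 at light offset, where 5 of 5 were. All larvae of light onset lay below all larvae of light offset, and the difference was -2.40 ± 0.37 (adjusted p = 4.29e-06). At 0 h it was not well above background on any of 6 arrays, and at 24 h it was on 3 of 6. With the 0 h levels raised as for *per3*, it was 5.26-fold lower at 0 h than at 12 h. CLOCK (C2_26384), its partner, ranged from -5.52 to -3.47, median -4.71, at light onset with 4 of 12 arrays well above background, against -3.59, -3.47, -2.81, -2.80 and -1.31 at light offset. The highest larva of light onset, larva 6 of 24 h, lay above larvae 1 and 2 of 12 h and all others lay below, and the difference was -1.96 ± 0.35 (adjusted p = 7.27e-05). From 0 h to 12 h the mean level of CLOCK was -4.96, -4.16, -3.59, -2.93 and -2.80, and from 15 h to 24 h it was -3.25, -4.08, -4.96 and -4.55. With the normexp correction the calls of *per3*, *cry2*, *bmal1* and *clock* were lost, at adjusted p of 0.944, 0.154, 0.796 and 0.612, and that of *cry1* was not.

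All 3 genes of the accessory clock and light response group were higher at light onset. Related genes outside this group went both ways in the study. It places *rev-erba* and *nfil3* in the cluster of *bmal1* and *clock*, and lists the nuclear receptor NR1D2 as lower at 12 h than at 24 h. ROR-gamma (C2_53107), a nuclear receptor of the family that activates *bmal1*, ranged from -1.65 to -0.52, median -1.18, against -2.53, -2.50, -2.11, -1.71 and -1.56 at light offset (difference 0.94 ± 0.20, adjusted p = 0.000856). Nocturnin (C2_4674), a rhythmic enzyme that in mice bears on lipid handling, ranged from -3.38 to -1.80, median -2.48, against -3.12, -3.03, -3.74, -2.82 and -3.88 (0.90 ± 0.23, adjusted p = 0.00501). In these genes the groups overlapped by 1 or more larvae. Cryptochrome DASH (C2_8882), of the photolyase family that repairs light damage in DNA, lay between -2.80 and -2.10, median -2.51, at light onset and at -3.26, -2.83, -2.93, -3.56 and -3.68 at light offset, with no overlap (0.79 ± 0.21, adjusted p = 0.00841). The calls of all 3 were lost with normexp, at adjusted p of 0.141, 1.000 and 1.000 in the order given, and that of nocturnin also with the local background subtracted (0.119).

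The 2 photoreceptor clones, the gamma subunits of the cone and the rod phosphodiesterase that carry the light signal in the retina, did not pass the test between light onset and light offset with all arrays. The cone clone (C2_55059) ranged from 3.22 to 5.39, median 4.96, at light onset, against 4.44, 4.34, 4.57, 4.18 and 2.64 at light offset (0.80 ± 0.63, adjusted p = 0.640). The rod clone (C3_c26523) ranged from 3.45 to 5.19, median 4.88, against 4.21, 3.98, 4.38, 4.27 and 4.22 (0.61 ± 0.44, adjusted p = 0.579). Larva 6 of 18 h lay far below the other larvae of its time in both clones, at -4.91 (others 2.33 to 3.47) and -1.59 (others 3.67 to 4.65), and it widened the spread that the fit shares over all times. Without it, a choice made after seeing these values, the rod clone passed the test (adjusted p = 0.0175) and the cone clone did not (0.0778), with the same differences. At 6 h both clones stood above 18 h, by 3.77 and 1.81 with that larva (adjusted p = 0.000177 and 0.0129) and by 2.44 and 0.86 without it (adjusted p = 7.69e-07 and 0.00456). The study's supplement also lists other phototransduction genes, outside this group, as lower at 12 h than at 24 h. They include another cone phosphodiesterase gamma entry, arrestin-C, phosducin and a cyclic nucleotide-gated channel. The 2 clones therefore do not stand for photoreceptor genes as a whole.

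**Figure D3:**
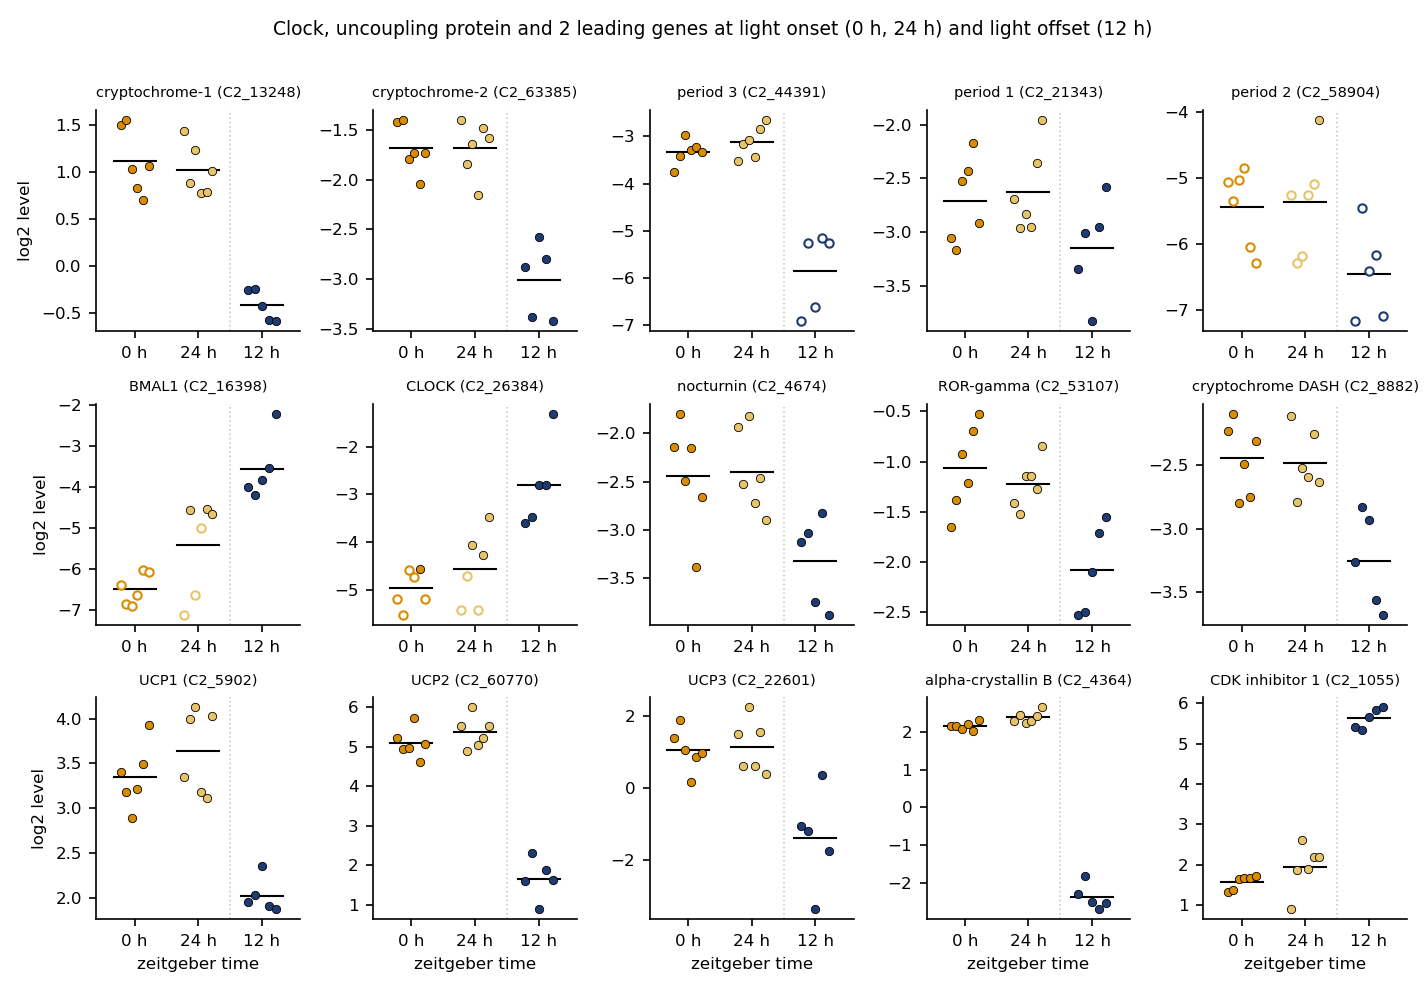
Log2 level of 15 clones in each larva, at light onset (0 h and 24 h, left of the dotted line) and at light offset (12 h, right of it). Points are larvae, filled where the probe was well above background and open where it was not, and bars are means; *per3* was open in all 5 larvae of 12 h, and CDK inhibitor 1 and alpha-crystallin B show the widest gaps between the groups.

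The uncoupling proteins are mitochondrial carriers that let protons return to the matrix without making ATP, and all 3 were higher at light onset. UCP2 (C2_60770), which is broadly expressed, ranged from 4.61 to 5.99 with a median of 5.14 at light onset, against 1.6, 2.33, 0.90, 1.89 and 1.63 at light offset. The lowest larva of light onset lay more than 2 log2 units above the highest of light offset, and the difference was 3.56 ± 0.29 (adjusted p = 3.58e-13), or 11.8-fold. The study's supplement also lists another UCP2 entry, outside this group, with the same direction but a smaller fold between 12 h and 24 h. UCP1 (C2_5902), known for heat production in mammals, ranged from 2.89 to 4.12, median 3.38, against 1.96, 2.03, 2.36, 1.91 and 1.88, with no overlap and a difference of 1.46 ± 0.18 (adjusted p = 2.40e-08). UCP3 (C2_22601), a muscle form in mammals, ranged from 0.19 to 2.25, median 1.03, against -1.04, -1.20, -3.36, 0.36 and -1.74. Larva 4 of 12 h fell inside the range of light onset, and the difference was 2.51 ± 0.41 (adjusted p = 1.02e-05). The courses between the ends differed: UCP2 stood 2.94 higher in larvae of 6 h than of 18 h (adjusted p = 2.85e-09), while UCP1 and UCP3 differed by -0.09 and -0.31 there (adjusted p = 0.812 and 0.705).

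Of the 20 named clones with the largest rises and falls, 15 had no overlap between the larvae of light onset and light offset, beside 2.70% of all probes. UCP3, the ileal bile acid cotransporter, CLOCK, HSP70 and PLK1 overlapped. None of the 10 rises changed sign within any of the 5 slides that held a larva of 12 h. The clones were picked by their differences between these same larvae, so neither count is independent evidence. Alpha-crystallin B (C2_4364), a small heat shock protein of lens and muscle, had the largest rise. It was between 2.02 and 2.65, median 2.26, in the larvae of light onset, and at -2.30, -1.82, -2.51, -2.70 and -2.53 in those of light offset. The difference was 4.64 ± 0.19 (adjusted p = 5.00e-24), or 24.99-fold, and lay between 4.04 and 5.17 within slides. Hyaluronan synthase 1 (C2_14211), which makes the matrix sugar hyaluronan, ranged from -0.76 to 0.75, median -0.11, against -4.36, -4.78, -3.17, -5.70 and -1.91, where 4 of 5 arrays were well above background (3.90 ± 0.38, adjusted p = 4.50e-11). Its level at light offset spread over more than 3 log2 units, but no larva reached the range of light onset. A clone similar to human C14orf118 (C2_34685) was 2.86 ± 0.35 higher, with levels of -2.05 to 0.30, median -0.85, against -4.24, -4.24, -4.23, -3.68 and -2.66 (adjusted p = 2.84e-08).

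Among the falls, cyclin-dependent kinase inhibitor 1 (C2_1055), of the family that halts the cell cycle, was lowest. It ranged from 0.90 to 2.61 with a median of 1.69 at light onset, against 5.40, 5.33, 5.65, 5.83 and 5.89 at light offset. The difference was -3.87 ± 0.23 (adjusted p = 2.54e-18), or 14.6-fold, and lay between -4.20 and -3.70 within slides. Its mean level from 0 h to 12 h was 1.56, 3.06, 4.53, 5.23 and 5.62 in the order of sampling, and from 15 h to 24 h it was 5.23, 3.45, 1.33 and 1.94. It climbed up to 12 h and declined from there to 21 h. Deltex-1 (C2_54553), a regulator of Notch signalling, ranged from 1.62 to 2.39, median 1.83, against 4.93, 4.66, 4.61, 4.77 and 5.09 (-2.87 ± 0.19, adjusted p = 3.67e-16). It stood high at 9 h and 12 h only, with mean levels of 3.83 and 4.81 there, and its other means lay between 1.92 and 2.94. Nuclear receptor coactivator 7 (C2_45763) was -1.69 ± 0.23 lower (adjusted p = 3.54e-07, lost with normexp at 0.321), and an uncharacterized protein (C3_c8931) -2.42 ± 0.52 lower (adjusted p = 0.000952), both with no overlap between the groups.

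**Figure D4:**
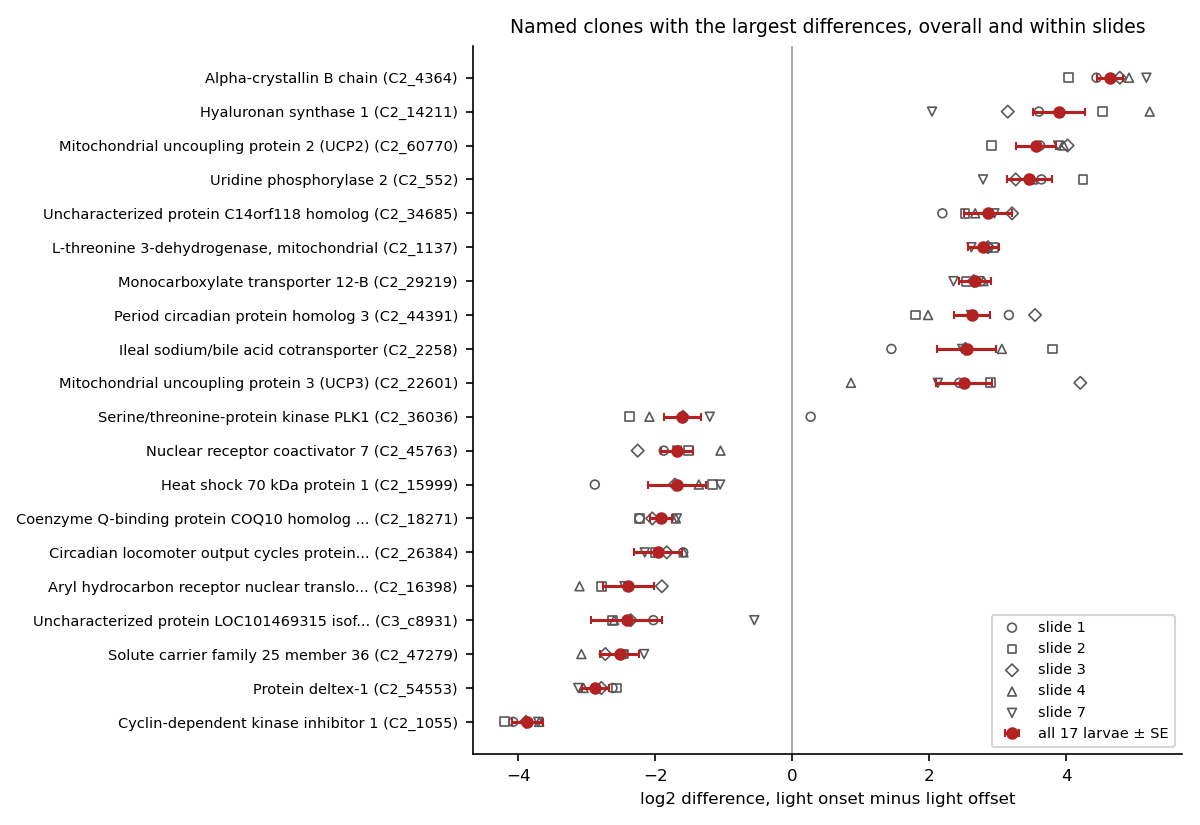
Log2 difference, light onset minus light offset, of the 10 named clones with the largest rise and the 10 with the largest fall. Red points with bars are the difference over all 17 larvae ± SE, and open symbols the difference within each of the 5 slides that held a larva of 12 h; PLK1 on slide 1 is the only open symbol on the other side of 0 from its red point.

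Of 20 genes of amino acid, nucleotide and energy metabolism, 9 were higher and 5 lower at light onset, with a median of 0.49. Of the genes that rose, uridine phosphorylase 2 (C2_552), which splits uridine, ranged from 1.03 to 2.73, median 1.95, against -1.75, -2.28, -1.70, -1.63 and -0.56 (3.47 ± 0.32, adjusted p = 1.77e-11). L-threonine 3-dehydrogenase (C2_1137), of threonine breakdown, ranged from -1.89 to -0.76, median -1.55, against -4.56, -4.69, -4.35, -4.41 and -3.37 (2.79 ± 0.23, adjusted p = 4.86e-13). Tyrosine aminotransferase (C2_3540), a liver enzyme of tyrosine breakdown, ranged from 1.97 to 3.75, median 2.73, against 1.36, 0.28, 1.54, 0.80 and 0.06 (1.88 ± 0.23, adjusted p = 4.44e-08). No larva overlapped in these 3 genes, and of them tyrosine aminotransferase also stood higher in the middle of the day than of the night, by 1.90 (adjusted p = 5.66e-07).

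The 5 metabolic genes that fell had other roles. Coenzyme Q-binding protein COQ10 homolog B (C2_18271), a mitochondrial protein of the respiratory chain, ranged from -0.44 to 0.83, median -0.19, against 1.97, 2.14, 1.87, 1.97 and 1.24 (-1.92 ± 0.16, adjusted p = 1.47e-12). The bifunctional enzyme that sets fructose-2,6-bisphosphate (C2_13557) and the liver type phosphofructokinase (C2_4969), both of glycolytic control, were -1.05 ± 0.16 and -0.50 ± 0.15 lower (adjusted p = 2.46e-06 and 0.0220). Dimethylglycine dehydrogenase (C2_41762), of choline breakdown, and cytosolic sulfotransferase 3 (C2_2270) were -1.17 ± 0.29 and -0.81 ± 0.16 lower (adjusted p = 0.00551 and 0.000336). The calls of C2_13557, C2_4969 and C2_41762 were lost with normexp (adjusted p = 0.121, 0.571 and 0.529). That of C2_4969 was also lost without larva 1 or larva 6 of 12 h (0.0991 and 0.0781).

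Of 8 genes of lipid, sterol and bile acid handling, 3 were higher and 1 lower, with a median of 0.52. The ileal bile acid cotransporter (C2_2258), which takes bile acids back up from the intestine, ranged from 0.67 to 2.78, median 2.17, against 0.89, -1.49, -0.18, -0.94 and -0.27 (2.55 ± 0.43, adjusted p = 2.23e-05). The overlap was of larva 6 of 0 h with larva 1 of 12 h. Prostaglandin E synthase (C2_4596) was 1.62 ± 0.21 higher with no overlap (adjusted p = 7.20e-08), and sterol 26-hydroxylase (C2_7004), of bile acid synthesis, 0.77 ± 0.18 higher (adjusted p = 0.00239, lost with normexp at 0.477). The nuclear receptor NR0B2 (C2_16956), known in mammals as a repressor of bile acid synthesis, went the other way. It ranged from -1.93 to 0.97, median 0.42, at light onset, against 1.92, 2.77, 1.53, 1.46 and 0.97 at light offset. No larva overlapped, but the gap at 0.97 was narrow. Its difference was -1.52 ± 0.40 (adjusted p = 0.00876), and without larva 2 of 12 h its adjusted p was 0.0664.

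All 12 solute carriers were called, 7 higher and 5 lower. Monocarboxylate transporter 12-B (C2_29219) ranged from 0.78 to 1.56, median 1.12, against -1.96, -1.43, -1.45, -1.57 and -1.18 (2.67 ± 0.23, adjusted p = 2.94e-12), and its difference of 6 h minus 18 h was -1.1 (adjusted p = 0.00367). The large neutral amino acid transporter (C2_14363) was 1.55 ± 0.21 higher (adjusted p = 4.37e-07). Both were separate from light offset in every larva. Among the 5 that fell, the mitochondrial carrier SLC25A36 (C2_47279) ranged from -2.10 to -0.91, median -1.47, against 0.51, 0.47, 1.36, 1.49 and 1.25 (-2.52 ± 0.29, adjusted p = 5.00e-09). The kidney mitochondrial carrier (C2_5889) was -1.41 ± 0.18 lower (adjusted p = 6.37e-08). The 2 sodium-potassium-chloride cotransporters SLC12A1 (C2_1685) and SLC12A2 (C2_21997), which move salt across epithelia, were both -1.51 lower, with SE of 0.25 and 0.27 (adjusted p = 1.77e-05 and 6.60e-05). The carrier of activated sulfate (C2_4392) was -0.34 ± 0.10 lower (adjusted p = 0.0175), a call lost with normexp (0.568), with the local background subtracted (0.0947), with median centring (0.219), and in the fit of the 17 arrays alone (0.137), and without larva 1 or larva 2 of 12 h (0.188 and 0.0761).

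The named cell cycle genes divided by phase, but the study selected most named genes for their course over the day in these larvae. The split is therefore no independent result. Of 36 genes of G1 and S phase, DNA replication and repair, 16 were higher and 1 lower at light onset, with a median of 0.59, and of 18 genes of G2 and M phase 0 were higher and 14 lower, with a median of -1.05. Cyclin E1 (C2_91393), which drives entry into S phase, ranged from -3.76 to -2.82, median -3.26, against -4.48, -4.22, -4.60, -5.80 and -4.07 (1.38 ± 0.26, adjusted p = 0.000118). Replication factor C subunit 5 (C2_9764), part of the loader of the replication clamp, ranged from -4.18 to -2.44, median -3.63, against -4.82, -4.19, -6.52, -4.49 and -4.70 (1.38 ± 0.24, adjusted p = 4.12e-05). Both genes were separate between the groups and were well above background on 12 of 12 arrays of light onset and 3 of 5 of light offset. The checkpoint kinase Chk1 (C2_11938) was 1.03 ± 0.21 higher (adjusted p = 0.000387) and origin recognition complex subunit 5 (C2_34563) 0.89 ± 0.20 higher (adjusted p = 0.00173). The catalytic subunits of DNA polymerases alpha and delta (C2_18591 and C2_10309) were 0.83 ± 0.21 and 0.84 ± 0.18 higher (adjusted p = 0.00688 and 0.00101). The Cip1-interacting zinc finger protein (C2_22008), which binds a CDK inhibitor, was the member that fell (-0.35 ± 0.09, adjusted p = 0.00467). At 6 h against 18 h, 18 of the 36 were higher and 2 lower, beside 2.52% and 4.53% of all probes. Without larva 6 of 18 h, left out after its values were seen, 14 were higher and 2 lower.

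Of the genes that fell in the G2 and M phase group, Aurora kinase A (C2_7839), a kinase of the spindle poles, ranged from -2.85 to -1.64, median -2.13, against -1.02, -0.33, -0.40, -1.30 and -1.35, with no overlap (-1.32 ± 0.20, adjusted p = 2.43e-06). Polo-like kinase PLK1 (C2_36036) was well above background on 5 of 12 arrays of light onset and 5 of 5 of light offset, and ranged from -5.61 to -3.83, median -5.20, against -4.10, -3.0, -3.18, -3.49 and -3.33 (-1.61 ± 0.27, adjusted p = 2.34e-05). Its range overlapped with light offset through larva 1 of 0 h alone. Within slide 1 it was 0.27 higher at light onset, and within the other 4 slides it was lower. Protein aurora borealis (C2_33651), which activates Aurora A, was -1.26 ± 0.29 lower (adjusted p = 0.00211). Cyclins B1, B2 and B3 (C2_3801, C2_11108 and C2_18447), which drive mitosis, differed by -1.07 ± 0.26, -1.16 ± 0.28 and -1.14 ± 0.27 (adjusted p = 0.00399, 0.00320 and 0.00286). CDC20 (C2_7899), an activator of the anaphase-promoting complex, differed by -1.06 ± 0.19 (adjusted p = 4.12e-05). In these 4 genes the groups overlapped. CDK inhibitor 1, described above, is grouped here but opposes division. In this group, 1 gene was higher and 1 lower at 6 h than at 18 h, beside 2.52% and 4.53% of all probes.

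With normexp the calls of cyclin E1, C2_9764, C2_22008, C2_36036 and C2_33651 were lost (adjusted p between 0.0976 and 1.000), and those of Chk1, C2_34563, C2_7839 and C2_1055 were not. C2_10309, C2_18591 and C2_11108 were lost with normexp too (0.103, 1.000 and 1.000), and C2_3801, C2_18447 and C2_7899 were not. C2_18591 was also lost with the local background subtracted (0.0733) and C2_11108 in the fit of the 17 arrays alone (0.0512). C2_9764 was also lost with the local background subtracted (0.0661) and C2_22008 in the fit of the 17 arrays alone (0.0618).

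Of 17 genes of ribosome biogenesis, 10 were higher and 0 lower, with a median of 0.47. Ribosomal protein L13a (C2_441) ranged from -1.52 to 1.25, median -0.20, against -1.69, -1.51, -1.86, -1.39 and -1.59 (1.47 ± 0.29, adjusted p = 0.000232). Its larvae of light offset lay within 0.5 log2 units of each other while those of light onset spread over more than 2. Nucleostemin (C2_1122), a nucleolar protein of proliferating cells, was 0.71 ± 0.18 higher (adjusted p = 0.00708). SDA1 (C2_6748), of large subunit export, was 0.64 ± 0.19 higher (adjusted p = 0.0218), and coiled-coil protein 86 (C2_31305) 0.54 ± 0.15 higher (adjusted p = 0.0135). These last 3 calls rested on single larvae of 12 h: without larva 6 their adjusted p was 0.0950, 0.207 and 0.172, and that of SDA1 was 0.0648 without larva 3. They were also lost with normexp (0.0557, 0.106 and 0.328), and those of SDA1 and C2_31305 with median centring (0.0752 and 0.0514) and in the fit of the 17 arrays alone (0.0596 and 0.0607).

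Of 19 genes of the neuromuscular junction and growth signalling, 6 were higher and 0 lower, with a median of 0.14. At 6 h against 18 h, 8 of the 19 were lower and 0 higher, beside 4.53% and 2.52% of all probes. The alpha subunit of the acetylcholine receptor (C2_5203), which receives the nerve signal on muscle, ranged from -2.20 to -1.01, median -1.58, against -3.19, -2.26, -1.95, -2.30 and -2.96 (0.97 ± 0.28, adjusted p = 0.0208). Myc-1 (C3_lrc4088), a transcription factor of growth, was 0.95 ± 0.26 higher (adjusted p = 0.0130) and its difference of 6 h minus 18 h was -1.74 (adjusted p = 3.06e-05). Insulin receptor substrate 1 (C2_99915), of insulin and IGF signalling, was 0.79 ± 0.20 higher (adjusted p = 0.00575), with 3 of 5 arrays of light offset well above background. SMAD9 (C2_96193), of BMP signalling, was 0.75 ± 0.21 higher (adjusted p = 0.0150). The call of C2_5203 was lost without larva 1 or 6 of 12 h (adjusted p = 0.112 and 0.0793), that of Myc-1 without larva 2 (0.109) and that of SMAD9 without larva 1 (0.0801). All 4 were lost with normexp, at adjusted p of 0.384, 1.000, 1.000 and 0.0908 in the order given, and Myc-1 and C2_99915 also with the local background subtracted (0.0585 and 0.506).

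Genes of protein folding and degradation were lower at light onset in some groups and not called in others. Of 13 chaperones 8 were lower, and alpha-crystallin B was the 1 that was higher. Heat shock protein HSP70 (C2_15999) ranged from -1.23 to 0.87, median -0.56, against 2.75, 0.97, 1.12, 1.33 and -0.16 (-1.69 ± 0.43, adjusted p = 0.00565). This call rested on larva 1 of 12 h, without which the adjusted p was 0.0652. HSP90-alpha (C2_4132) ranged from -2.01 to -1.01, median -1.39, against 0.41, -0.22, -1.07, 0.60 and -0.44 (-1.33 ± 0.23, adjusted p = 2.91e-05). The endoplasmic reticulum chaperone GRP78 (C2_14888) ranged from -2.30 to -1.20, median -1.91, against -0.95, -0.80, -0.84, -1.16 and -0.62, with no overlap (-1.04 ± 0.19, adjusted p = 0.000118).

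Of 11 ubiquitin and NEDD8 genes 0 were higher and 6 lower, with a median of -0.40. The ligase ZNRF2 (C2_4669) ranged from -0.23 to 1.26, median 0.18, against 2.29, 1.43, 1.38, 1.88 and 1.52, with no overlap (-1.45 ± 0.20, adjusted p = 4.58e-07). The deubiquitinases USP28 (C2_21971) and USP3 (C2_24706) were -1.28 ± 0.23 and -0.57 ± 0.17 lower (adjusted p = 6.91e-05 and 0.0203), and polyubiquitin-C (C2_6115) was -0.70 ± 0.11 lower (adjusted p = 6.21e-06). USP28 lost its call with normexp (0.185). USP3 lost it with normexp, the local background subtracted, median centring, quantile normalization and the 17 arrays alone (adjusted p = 1.000, 0.0568, 0.0830, 0.117 and 0.0548) and without larva 1 of 12 h (0.117). Of the 14 proteasome subunits 0 passed limma's adjusted p, and 6 had an unadjusted p under 0.05, beside 2388 of all 13940 probes. All 14 differences lay between -0.43 and -0.07, with a median of -0.22.

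Of 8 antioxidant and detoxification genes, 1 was higher and 2 lower. Aldehyde dehydrogenase 9A1 (C2_3814) was -1.26 ± 0.19 lower (adjusted p = 3.79e-06). Catalase (C2_997), which breaks down hydrogen peroxide, ranged from -3.34 to -2.34, median -2.59, against -1.56, -2.23, -1.68, -1.46 and -1.34 (-0.99 ± 0.20, adjusted p = 0.000411, lost with normexp at 0.0570). NRF2 (C2_2183), the transcription factor of the oxidative stress response, was 0.61 ± 0.16 higher (adjusted p = 0.00608). Of 7 apoptosis genes, 1 was higher and 3 lower. The caspase inhibitor XIAP (C2_5274) ranged from -0.97 to -0.08, median -0.50, against -1.21, -1.63, -1.49, -1.47 and -1.19, with no overlap (0.86 ± 0.12, adjusted p = 4.67e-07). The Bcl-2 family members BCL2L14 (C2_8898) and BCL2L12 (C2_43110) were -1.34 ± 0.19 and -0.95 ± 0.26 lower (adjusted p = 1.01e-06 and 0.0121), and TRADD (C2_2326), an adaptor of the tumor necrosis factor receptor, was -0.89 ± 0.16 lower (adjusted p = 4.64e-05). Of 4 chromatin genes, the histone methyltransferase EHMT2 (C2_23348) and the heterochromatin protein CBX5 (C2_1877) were -0.45 ± 0.10 and -0.44 ± 0.11 lower (adjusted p = 0.00109 and 0.00629). With normexp C2_43110, C2_2326 and C2_1877 lost their calls (adjusted p = 1.000, 0.0582 and 0.107).

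Clones without a gene name held the largest falls of the array, while the largest rise was that of alpha-crystallin B. Among the unnamed clones, C3_c33852 and C2_51141 rose most. C3_c33852 was between -2.06 and -1.50, median -1.84, in the larvae of light onset. It was not well above background in any of 5 larvae of light offset. With those levels raised as for *per3*, it was 13.4-fold higher at light onset (adjusted p = 2.43e-19 on the measured levels). C2_51141 ranged from -0.80 to 1.38, median 0.16, against -4.24, -4.92, -3.11, -3.24 and -3.03 (3.86 ± 0.37, adjusted p = 4.71e-11). On the other side, 15 clones fell by more than 4 log2 units, and none of them has a gene name in the sources used here. Whether their signal came from the larvae or from prey in the gut was not tested. C3_c29376 was not well above background in any of 6 larvae of 0 h, where it lay between -7.89 and -6.51. It stood at 4.96, 3.85, 6.47, 4.17 and 4.72 in the 5 larvae of 12 h. With the 0 h levels raised in the same way, it was 1925-fold lower at 0 h (adjusted p = 3.91e-07 on the measured levels). C3_c57724 was 439-fold lower at 0 h by the same limit (adjusted p = 3.37e-07), with 3.15, 1.56, 4.34, 2.20 and 2.26 at 12 h.

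The larvae of 24 h were not alike in these clones. In C3_c29376 larvae 1 to 4 of 24 h lay between -7.31 and -6.97, as the larvae of 0 h did, while larvae 5 and 6 were at 3.06 and 3.24, close to light offset. The same 2 larvae were above the other 10 larvae of light onset by more than 2-fold in 14 of the 15 clones. C3_c17046 was the exception, at -4.71 and -5.97 in them. Over all 13940 probes, 16 showed this pattern, of which 15 were among the 481 lower at light onset and 0 among the 647 higher. The mean level of the 14 clones was between -6.93 and -6.15 at 0 h. It ranged from -0.37 to 2.24 in larvae of 6 h, from -1.31 to 3.64 in those of 9 h and from 0.46 to 3.68 in those of 12 h. After light offset it ranged from -6.73 to -4.93 over the samplings of 15 h and 18 h and from -6.85 to -5.39 in larvae of 21 h. At 3 h, 1 larva was at -5.61 and the highest at 3.66. Without larvae 5 and 6 of 24 h, a choice made after seeing these values, 615 probes were higher and 454 lower at light onset.

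**Figure D5:**
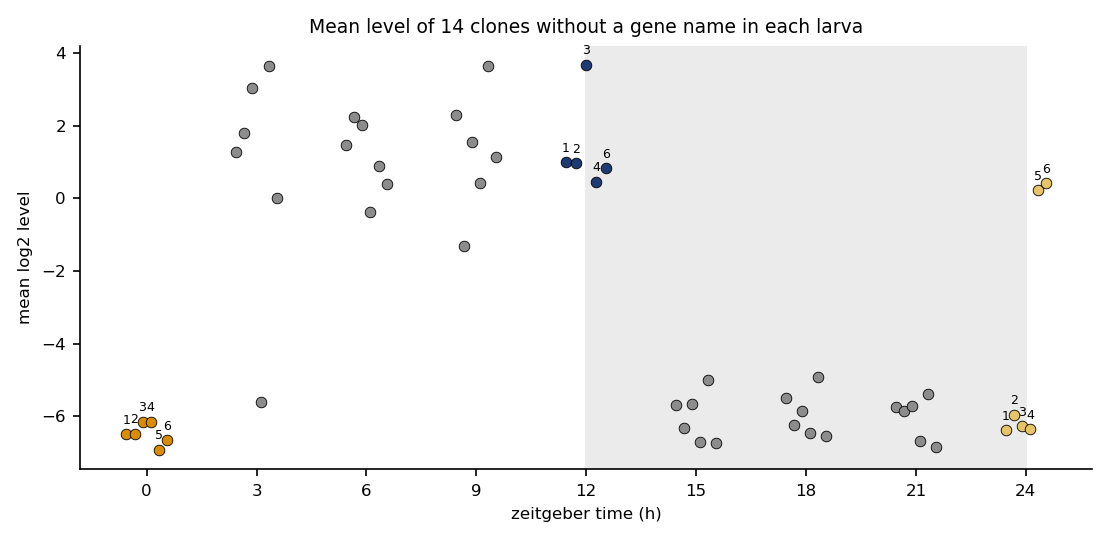
Mean log2 level, in each larva, of the 14 clones without a gene name that fell by more than 4 log2 units at light onset and in which larvae 5 and 6 of 24 h stood apart, over zeitgeber time (h). Points are larvae, numbered at 0, 12 and 24 h (orange, dark blue and yellow), other times are grey and the dark phase is shaded; the larvae from 6 h to 12 h lie at -1.31 or above, those from 15 h to 21 h at -4.93 or below, and the 6 larvae of 24 h are split 4 to 2.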

How the data were processed

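Whole single larvae were profiled on 53 Cy3 arrays, and groups came from the zeitgeber time in the sample labels. Per the labels and file headers, the authors extracted the signals from the scanned arrays with Agilent Feature Extraction 11.5.1.1. The deposited files hold intensity values per spot, with the processed signal already background-corrected. The authors also deposited a table of log2 values of the same arrays, which was used as an alternative. Centred on their probe medians, the values computed here differed from that table by a median of 0.00555, which settles its centring and direction. Probes of the array are keyed by clone code, and gene names come only from the clone codes in the study's tables, so that no position or sequence is given.

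In R 4.3.3, control spots (536 on an array) and all outlier spots (974 over the 53 arrays) were dropped, an array's 75th percentile was subtracted from its log2 processed signals, and repeat spots were averaged, which left 13940 probes with 827 missing values, none in a named clone at 0, 12 or 24 h. A model of 9 groups was fitted in limma 3.58.1, checked on simulated data, with Benjamini-Hochberg adjustment over all probes and a threshold of 0.05. The contrast was the mean of 0 h and 24 h minus 12 h. Where no array of a group was well above background, a fold was given against a limit on each array. That limit was the higher of the probe's own signal and the lowest signal well above background. Signals not well above background can lie above that lowest one, so such folds are not strict lower bounds. Within-slide differences used the 5 slides with a larva of 12 h. The number of arrays limits the precision. Alternatives were the background correction, the normalization, a filter on dim probes, outlier spots, the slide or larva number as a block, the threshold, the 17 arrays alone and leaving out each larva of the comparison or larva 6 of 18 h.

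Named are all members of the core clock, accessory clock, photoreceptor and uncoupling protein groups, up to 4 called members of each other group with the largest differences and those against its majority, the 10 largest rises and falls of named clones, and 2 unnamed clones each way. DNA polymerases, cyclins B and CDC20 were added after their values were seen, as were the unnamed clones beyond these. Members and lists were chosen with earlier results of these data known. Normexp was planned on the mean signal, which the files used here do not hold, and used the median signal.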

Additional observations from a re-analysis of the deposited data

Results flagged for a closer look

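In 231 groups of 5 or 6 larvae (77 named clones at 0, 24 and 12 h), 22 held a larva that stood apart from the rest of its group by Dixon's criterion, and chance gives about 1 in 20. By sampling time, 5 were at 0 h, 9 at 24 h and 8 at 12 h. Levels are on the log2 scale.

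At 0 h the larvae that stood apart were larva 2 in C2_9764 (-4.18, others -3.72 to -3.48), larva 1 in PLK1 (C2_36036, -3.83, others -5.61 to -5.15), larva 6 in the ileal bile acid cotransporter (C2_2258, 0.67, others 2.12 to 2.66) and larva 5 in monocarboxylate transporter 12-B (C2_29219, 1.56, others 0.78 to 1.00) and in C2_13557 (-2.88, others -2.63 to -2.53).

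At 24 h larva 5 stood low in both photoreceptor clones, C2_55059 (3.22, others 4.61 to 5.39) and C3_c26523 (3.45, others 4.62 to 5.19). Larva 6 stood apart in C2_99915 (-2.56), GRP78 (C2_14888, -1.20) and TRADD (C2_2326, -2.58), larva 4 in polyubiquitin-C (C2_6115, 4.57) and deltex-1 (C2_54553, 2.32), larva 3 in NR0B2 (C2_16956, -1.93, others -0.02 to 0.85) and larva 2 in C2_13557 (-1.56, others -3.02 to -2.50).

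At 12 h larva 6 stood apart in the cone photoreceptor clone C2_55059 (2.64, others 4.18 to 4.57), in C2_99915 (-3.54) and in L-threonine 3-dehydrogenase (C2_1137, -3.37, others -4.69 to -4.35). Larva 3 stood low in C2_9764 (-6.52, others -4.82 to -4.19), larva 2 in Myc-1 (C3_lrc4088, -4.28, others -3.27 to -3.16) and in C2_2270 (-1.51, others -0.68 to -0.43), and larva 1 stood apart in C2_14363 (-1.92, others -2.55 to -2.49) and C2_43110 (-4.04, others -3.79 to -3.73). In 19 of these 22 groups the clone was called, and no sign of a difference turned when the larva was left out.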

How the results depend on the processing

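In the refits at the 0.05 threshold, 42 of the 77 named clones kept their direction and their side of the threshold, 35 changed side in at least 1 refit, and 0 turned round. The filter on dim probes covered 76 of them, and the 0.01 threshold, the call at both times and the analysis of variance were run for the counts only. Normexp ended 31 calls, and no named call changed with the slide block, the replicate block, the deposited table or the outlier spots kept. With normexp 260 probes were higher and 182 lower, 317 were called at 0 h and 332 at 24 h against 12 h, and of these probes that rose and fell 58 and 34 differed between 6 h and 18 h (154 and 81 in the main setting). Of the normexp calls, 256 and 178 were among the 647 and 481. With the slide block the counts were 1041, 942, 1523, 1601, 323 and 214 in the same order, and 645 and 480 of the 647 and 481 were among them. At an adjusted p under 0.01 they were 430, 301, 471, 536, 65 and 51. A call at both 0 h and 24 h left 385 higher and 250 lower, and the methods' analysis of variance with Tukey's test 350 and 227.

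The larva numbers were not used as pairs in the main fit. Same-numbered larvae of 0 h and 12 h correlated at 0.0872 to 0.282 in their deviations, those of 24 h and 12 h at -0.0525 to 0.581 and those of 0 h and 24 h at -0.119 to 0.310, and 2 of 5, 1 of 5 and 1 of 6 correlated best with their own number. Larvae 1 to 4 of 0 h and 12 h shared a slide with their own number, as did larvae 6 of 24 h and 12 h, the pair at 0.581. Slide and larva number cannot be told apart in these pairs. With the replicate block 872 probes were higher and 767 lower, 1333 and 1376 were called at 0 h and 24 h against 12 h, and 282 and 175 differed between 6 h and 18 h.

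With 1 larva of 0, 12 or 24 h, or larva 6 of 18 h (a choice made after seeing the data), left out at a time, 552 to 667 probes were higher and 384 to 505 lower, 658 to 872 and 746 to 965 were called at 0 h and 24 h against 12 h, and 127 to 157 and 72 to 82 differed between 6 h and 18 h. Median centring gave 642 higher and 371 lower, and no scaling moved the median of all probes by more than 0.1.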
